A study of Mus musculus with 3 samples.

Results

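The 9 genes that carry the PD-1, LAG3, TIM3 and TIGIT checkpoint pathways were followed by single-cell RNA sequencing in immune cells sorted from 4T1 breast tumors. The 9 members were taken by gene symbol from the 32285 genes of the count tables, and each was found in all 3 libraries. They were the inhibitory receptors Pdcd1 (PD-1), Lag3 (LAG3), Havcr2 (TIM3) and Tigit, the nuclear factor Tox, the surface enzyme Entpd1 (CD39), and the ligands Cd274 (PD-L1), Pdcd1lg2 (PD-L2) and Lgals9 (galectin-9). The study compared the immune infiltrate of tumors in which the stress kinase p38 was blocked, by drug or by gene disruption, with that of control tumors. 4T1 is a mouse mammary adenocarcinoma line, here with a luciferase reporter (4T1-luc), and 200000 cells in PBS and matrigel were placed in the mammary fat pad of female BALB/c mice of 6 to 8 weeks. The vehicle group carried p38a wildtype tumors and was given DPBS. The p38i group carried the same tumors and received the p38 inhibitor LY2228820 (ralimetinib) at 30 mg/kg by daily gavage, in both groups from day 4 and for 10 days. The p38KO group carried 4T1-luc cells with p38a inactivated by CRISPR-Cas9, from the single clone H9, with no treatment listed. In that group only the tumor cells lacked p38a while the host immune cells kept it, so the level of the disrupted gene in CD45+ cells checks nothing. On day 14 the tumors of 3 mice were pooled for each group, dissociated with cold protease, and sorted for live (7AAD-negative) CD45+ cells. Each group was thus 1 library, differences between groups could not be tested, and mouse, clone and library cannot be told apart from treatment.

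Inhibitory receptors are induced on T cells by antigen stimulation and restrain them when their ligands are engaged. PD-1 binds PD-L1 and PD-L2, which are induced by interferon on myeloid and tumor cells. LAG3 binds MHC class II and other partners, TIM3 has galectin-9 among its ligands, and TIGIT binds the poliovirus receptor that it shares with the activating receptor CD226. T cells that meet antigen for long, as in tumors, carry several of these receptors at once together with TOX, which keeps that exhausted state, and CD39, which turns extracellular ATP into AMP on the way to adenosine.

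Genome positions follow GENCODE M21 on GRCm38, and all 9 gene identifiers are those of the count tables. Pdcd1 (ENSMUSG00000026285) lies at chr1:94038305-94052553 on the minus strand, Lag3 (ENSMUSG00000030124) at chr6:124904361-124911705 on the minus strand, and Havcr2 (ENSMUSG00000020399) at chr11:46454935-46481255 on the plus strand. Tigit (ENSMUSG00000071552) lies at chr16:43648867-43664146 on the minus strand, Tox (ENSMUSG00000041272) at chr4:6686353-6991557 on the minus strand, and Entpd1 (ENSMUSG00000048120) at chr19:40612366-40741602 on the plus strand. Both PD-1 ligands are neighbours on the plus strand of chromosome 19, Cd274 (ENSMUSG00000016496) at chr19:29367455-29388095 and Pdcd1lg2 (ENSMUSG00000016498) at chr19:29410919-29471161. Lgals9 (ENSMUSG00000001123) lies at chr11:78962974-78984946 on the minus strand. All 9 are protein-coding, and a count is a UMI assigned to the gene as a whole.

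Barcodes were kept from 1500 UMIs and 300 genes upwards and up to a mitochondrial share of 20%, 3820 of 4588 barcodes for vehicle, 4793 of 6343 for p38i and 3859 of 5212 for p38KO. Their median depth was 3162, 3038 and 3317 UMIs, and any pair of libraries shared 4 or 5 kept barcodes. Clusters were named from marker lists, and their cells were then gated on 1 or more UMIs of a gate gene. Within T cell clusters this was Cd8a or Cd8b1 without Cd4 and Foxp3 for CD8 T cells, Cd4 without Cd8a, Cd8b1 and Foxp3 for CD4 T cells, Foxp3 without Cd8a and Cd8b1 for Treg cells, and Mki67 for cycling T cells. Elsewhere it was Ncr1 for NK cells, Csf3r for neutrophils, Fn1 for monocytes, C1qa for macrophages and Flt3 for dendritic cells. In the order vehicle, p38i and p38KO, which is kept below, this gave 277, 253 and 159 CD8 T cells, 118, 144 and 174 CD4 T cells, 68, 110 and 92 Treg cells, and 127, 125 and 140 NK cells. There were 1865, 2086 and 1643 neutrophils, 429, 789 and 380 monocytes, 139, 163 and 523 macrophages, and 26, 45 and 60 Flt3 dendritic cells. All 6 T cell markers (Cd3d, Cd3e, Cd3g, Trac, Trbc1, Trbc2) were detected in the CD8, CD4 and Treg gates of every library, and all 7 neutrophil markers in the neutrophils. The same markers had named the clusters, and Csf3r is also the neutrophil gate gene, so this is no separate check of identity. Levels are UMI counts per 1000000 UMIs of the class (CPM) with exact Poisson 95% intervals, and a comparison is the log2 ratio of a library's CPM to that of vehicle with an exact binomial 95% interval. These intervals cover counting error only, not the spread between mice. A gene was called higher or lower when the ratio was at least 0.5 either way, its interval left out 0 and both libraries together held at least 20 counts. The p38i and p38KO ratios share the vehicle library, so they are given side by side and are not independent.

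**Figure D1:**
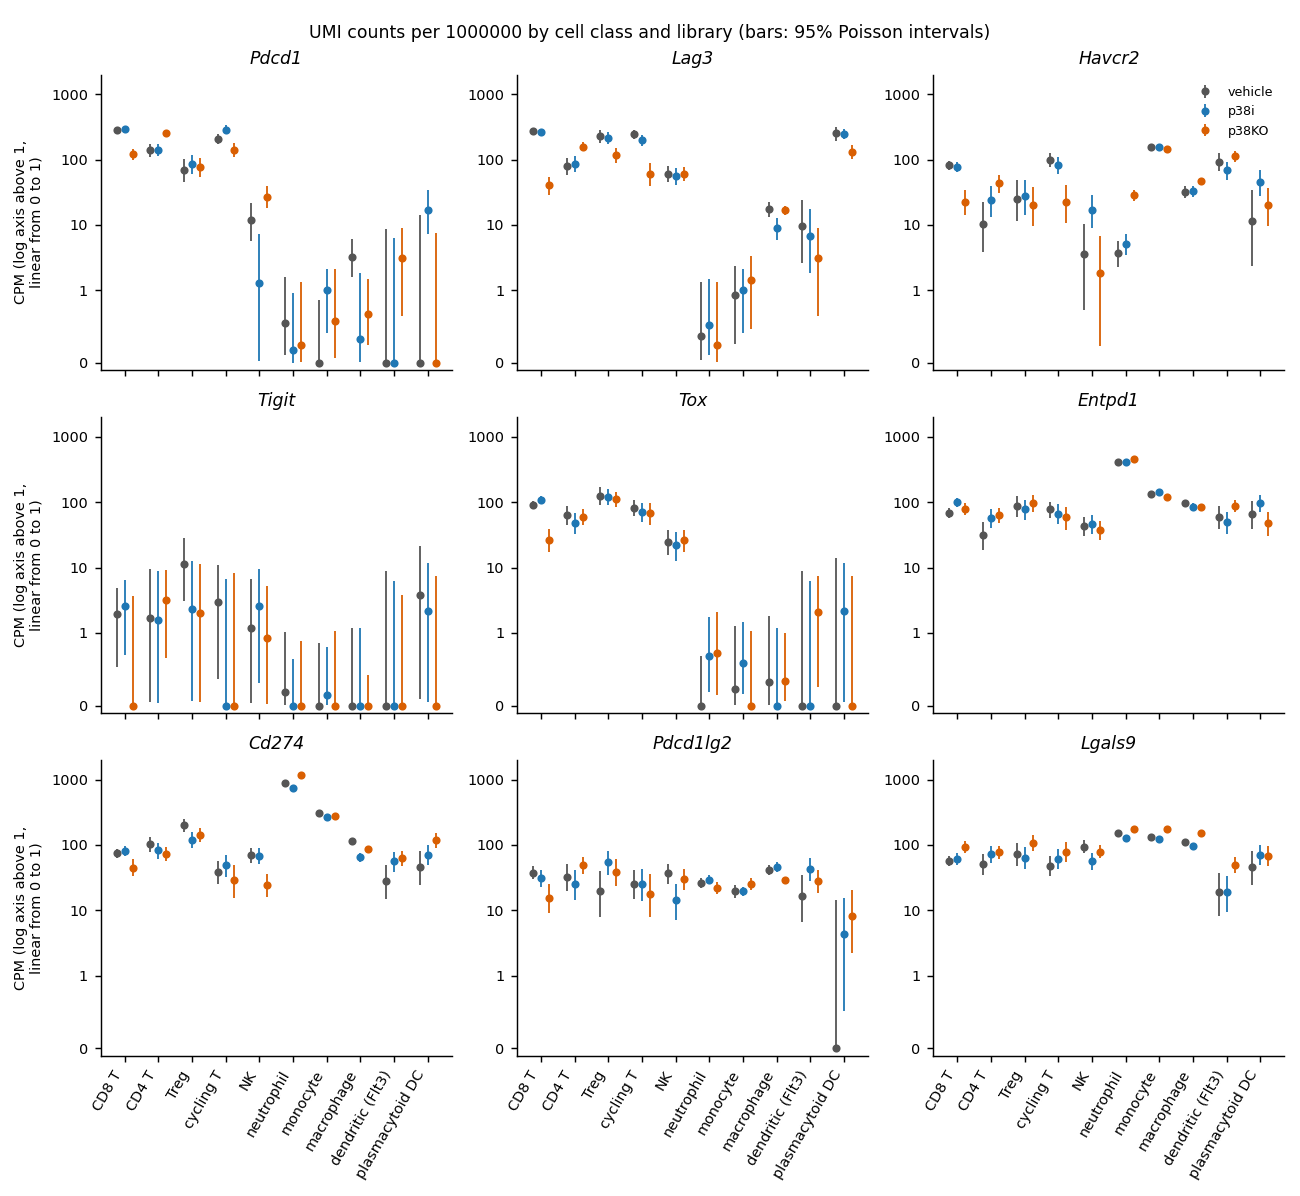
Level of each of the 9 genes (CPM, log axis above 1 and linear from 0 to 1) in 10 cell classes, with a color for each of the vehicle, p38i and p38KO libraries. Points are the level of a class in 1 library and bars its exact Poisson 95% interval. In CD8 T cells the p38KO point lies below both others for Pdcd1, Lag3, Havcr2 and Tox, at 120, 40.3, 22.6 and 26.5 CPM, while Cd274 and Entpd1 reach their highest levels in neutrophils of all 3 libraries.

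CD8 T cells of p38KO tumors held less RNA of 3 of the 4 receptors and of Tox than those of vehicle tumors, whereas none of these 4 genes was called in p38i. Among the 8 members with enough counts in CD8 T cells, 6 were called lower and 1 higher in p38KO, against 5.08% and 7.11% of the 8576 genes compared. The median log2 ratio of the 8 was -1.25, and that of all genes 0.08. In p38i none was lower and 1 was higher, where 2.65% and 4.93% of 8927 genes were, with medians of 0.08 for the members and 0.06 for all genes.

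Pdcd1, the receptor PD-1, stood in CD8 T cells at 283 (261 to 307), 294 (268 to 322) and 120 (99.5 to 143) CPM. The p38KO interval lies below both others, which overlap. Its log2 ratio to vehicle was -1.24 (-1.54 to -0.96) for p38KO and 0.05 (-0.13 to 0.23) for p38i. After every cell was thinned to 1500 UMIs, Pdcd1 was detected in 28.2%, 28.1% and 14.5% of CD8 T cells, and at their own median depths of 6199, 5350 and 5472 UMIs in 57.4%, 54.9% and 32.7%. Neutrophils, which should lack Pdcd1, gave thinned shares of 0.107%, 0.0479% and 0.0609% at median depths of 2472, 2211 and 2145 UMIs, far below those of the T cells. By the median over libraries Pdcd1 was highest in CD8 T cells at 283 CPM, whose range overlaps those of a small cluster led by Trdc, at 167 CPM, and of CD4 T cells, at 142 CPM. Treg cells at 77.3 CPM lay below CD8 and CD4 T cells without overlap but within the range of the Trdc cluster, 53.1 to 281 CPM, and NK cells at 11.8 CPM lay below all of these.

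Lag3 showed the widest gap of the 9 genes in CD8 T cells, at 277 (255 to 301), 265 (240 to 292) and 40.3 (28.9 to 54.6) CPM. Vehicle and p38i again overlapped and p38KO lay apart, with a log2 ratio of -2.78 (-3.28 to -2.33) for p38KO and -0.07 (-0.25 to 0.12) for p38i. The p38KO counts, 41 in all, came from 26 cells with at most 4 in any one. Thinned shares were 30.7%, 27.7% and 5.66%, shares at own depth were 60.3%, 56.5% and 16.4%, and the thinned neutrophil shares were the same as for Pdcd1.

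Havcr2, the receptor TIM3, was measured in CD8 T cells at 81.7 (69.9 to 95.03), 77.04 (63.9 to 92.1) and 22.6 (14.3 to 33.9) CPM. Only p38KO stood apart. Its log2 ratio was -1.86 (-2.55 to -1.22), and that of p38i -0.09 (-0.43 to 0.26). Of its 23 counts in p38KO CD8 T cells 11 came from 1 cell. Thinned shares were 7.94%, 9.88% and 2.52%, while NK cells, where Havcr2 was low, gave 0.787% in vehicle, 1.6% in p38i and 0 of 140 cells in p38KO (upper exact limit 2.60%) at median depths of 4861, 4912 and 5889 UMIs.

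Tox, the factor of exhausted T cells, followed the receptors in CD8 T cells at 90.9 (78.4 to 105), 108 (92.6 to 126) and 26.5 (17.5 to 38.6) CPM. The p38KO level was lower by the same rule, with a log2 ratio of -1.78 (-2.42 to -1.19), and p38i gave 0.25 (-0.06 to 0.56). Thinned shares of 11.2%, 15.4% and 3.77% compare with 0 of 1865 (upper exact limit 0.198%), 2 of 2086 and 1 of 1643 neutrophils. Tigit was too rare for any comparison. It gave 4, 4 and 0 counts in CD8 T cells, where 0 counts in p38KO allow up to 2.95 CPM (3 counts), and 14, 11 and 5 counts in all kept cells of the libraries.

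Both PD-1 ligands were lower in p38KO CD8 T cells as well, at low levels. Cd274 stood at 74.5, 80.2 and 45.2 CPM there, a log2 ratio of -0.72 (-1.23 to -0.24) in p38KO and 0.11 (-0.24 to 0.46) in p38i, and 31 of the 154 vehicle counts came from 1 cell. In the whole cluster led by Cd8a, Cd8b1 and Nkg7 the p38KO ratio of Cd274 was -0.22 (-0.65 to 0.20), not called. Pdcd1lg2 stood at 37.7, 31.2 and 15.7 CPM, a p38KO ratio of -1.26 (-2.14 to -0.48) beside -0.27 (-0.82 to 0.26) for p38i. Its thinned shares of 2.89%, 3.95% and 0.629% were no higher than the 3.16%, 3.31% and 3.10% of neutrophils in 2 of 3 libraries. Neutrophils are no blank for this gene, as their clusters held 32.3%, 31.2% and 20.55% of its counts. Lgals9 was the 1 member called higher in p38KO CD8 T cells, at 57.1, 61.8 and 93.3 CPM and a log2 ratio of 0.71 (0.30 to 1.11), with 0.11 (-0.29 to 0.51) in p38i. Entpd1 was the 1 member called higher in p38i, at 69.2, 99.3 and 79.5 CPM, a log2 ratio of 0.52 (0.19 to 0.86) beside 0.20 (-0.21 to 0.60) in p38KO.

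Markers of myeloid cells moved with these groups. Over the 7 neutrophil markers the summed level in CD8 T cells was 2909, 8022 and 3697 CPM (at most 1 of the 7 at 0), and over the 8 macrophage markers 69.2, 45.8 and 293 CPM (1, 1 and 0 at 0). The 6 monocyte markers summed to 755, 397 and 804 CPM (0, 1 and 2 at 0). Restricted to cells with at most 1 neutrophil marker UMI, which left 114, 111 and 106 CD8 T cells, the p38KO log2 ratios were -1.46 for Pdcd1, -2.68 for Lag3, -1.88 for Havcr2 and -1.74 for Tox. Restricted instead to at most 1 monocyte or macrophage marker UMI, which left 121, 157 and 54 cells, they were -1.53, -2.70, -1.89 and -1.98. All 4 were called lower in both settings, and the part of myeloid RNA in the differences was not tested. Entpd1 in p38i, which is abundant in neutrophils, gave 0.98 (0.30 to 1.69) in the first setting and was called higher there too, and Cd274 in p38i changed from 0.11 to -1.10 (-2.07 to -0.19). In p38KO the Lgals9 call was lost in the first setting at 0.54 (-0.05 to 1.14), as were those of Pdcd1lg2 at -1.0 (-2.24 to 0.12) and, in the second, Cd274 at -0.47 (-1.62 to 0.55).

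The lower levels were present in dividing and other CD8 T cells alike. Cycling CD8 T cells, 38, 34 and 19 cells with Mki67, held Lag3 at 290, 241 and 33.9 CPM, Havcr2 at 130, 102 and 11.3 CPM and Tox at 93.8, 96.3 and 11.3 CPM. Each of the 3 was lowest in p38KO, with log2 ratios of -3.10 (-4.57 to -1.94), -3.53 (-6.60 to -1.61) and -3.05 (-6.14 to -1.12), though on only 6, 2 and 2 counts. These 3 of 7 members were called lower and none higher, where 5.46% and 6.93% of genes were, with medians of -0.56 for the members and 0.07 for all genes. Pdcd1 behaved differently in dividing cells, at 232, 391 and 158 CPM, and was called higher in p38i at 0.75 (0.37 to 1.13) but not lower in p38KO at -0.56 (-1.21 to 0.05). That was 1 of 7 members higher and none lower in p38i, against 5.97% and 3.54% of genes, with medians of 0.04 and 0.05. In CD8 T cells without Mki67, Pdcd1 was 298, 268 and 112 CPM, a p38KO log2 ratio of -1.42 (-1.75 to -1.10), and Lag3 273, 271 and 41.6 CPM, a ratio of -2.72 (-3.26 to -2.22). Here 6 of 8 members were called lower and 1 higher in p38KO, against 4.92% and 6.67% of genes (medians -1.29 and 0.07). In p38i 1 was higher and none lower against 4.66% and 2.86% (medians 0.05 and 0.06).

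**Figure D2:**
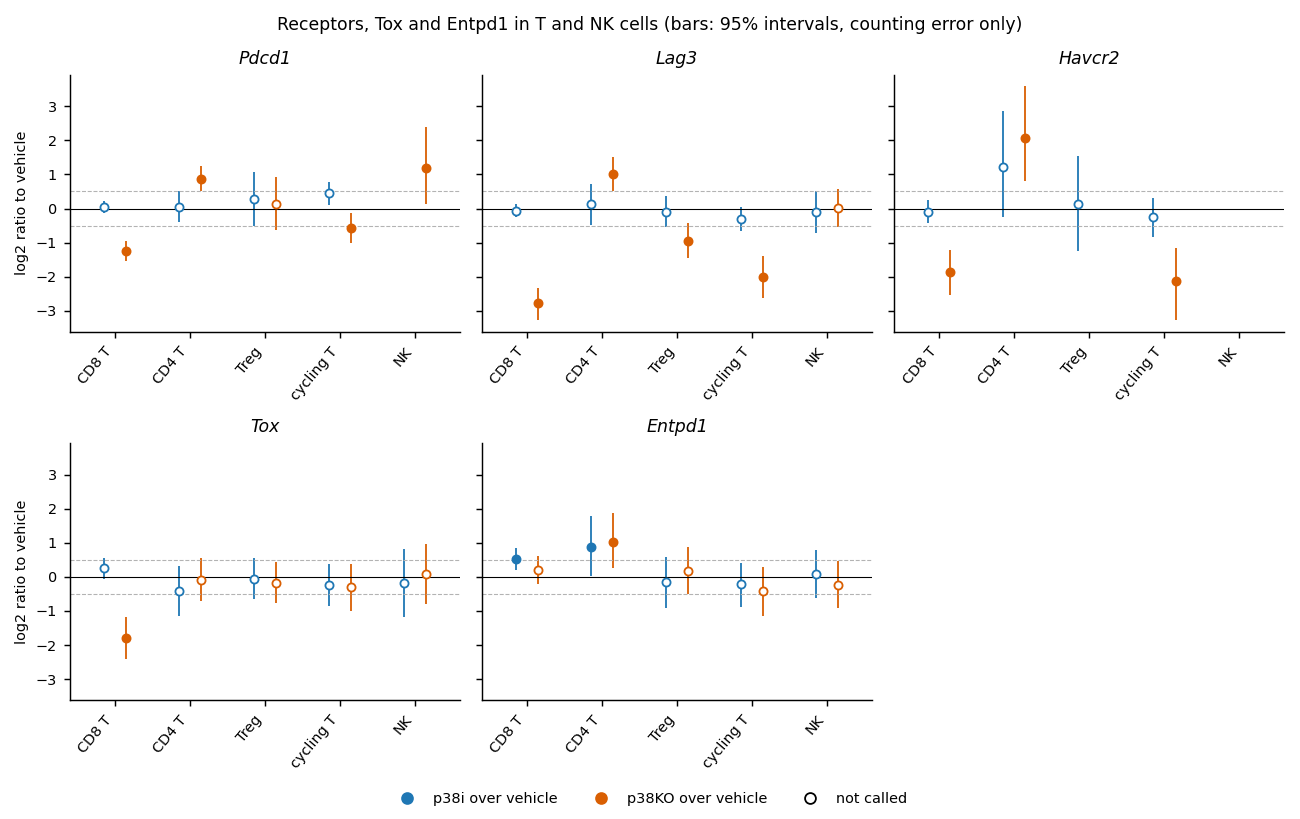
Log2 ratio to vehicle of Pdcd1, Lag3, Havcr2, Tox and Entpd1 in T cell classes and NK cells for p38i (blue) and p38KO (orange), with 95% intervals of counting error. Filled points were called, dashed lines mark the ratio of 0.5 either way, and pairs with under 20 counts, among them all of Tigit, are left out. In p38KO Lag3 runs from -2.78 in CD8 T cells to 1.0 in CD4 T cells.

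Several receptors in the same cell mark exhausted T cells, so the number of Pdcd1, Lag3, Havcr2 and Tigit detected per cell was counted at 1500 UMIs. At least 2 of the 4 were found in 44 of 277 vehicle CD8 T cells (15.9%, exact 95% interval 11.8% to 20.7%), 40 of 253 in p38i (15.8%, 11.5% to 20.9%) and 3 of 159 in p38KO (1.89%, 0.391% to 5.42%). The p38KO interval does not reach those of the other libraries, which nearly coincide. The single shares of Pdcd1, Lag3 and Havcr2 were lower in p38KO as well, so a lower share with 2 or more is no independent result. Whether it goes beyond them was not tested. None of the 4 was detected in 51.3%, 52.6% and 79.2% of the CD8 T cells. Among 1865, 2086 and 1643 neutrophils 0 held 2 or more, with upper exact limits of 0.198%, 0.177% and 0.224%. With cells thinned to 3000 UMIs, which keeps 264, 214 and 144 of them, the shares with 2 or more were 34.5%, 31.3% and 9.03%, and at own depth 49.5%, 51.8% and 14.5%. Cycling CD8 T cells at 3000 UMIs reached 50% of 36, 46.7% of 30 and 11.8% of 17. At 1500 UMIs Lag3 was detected more often in CD8 T cells with Pdcd1 than in those without, 42.3% against 26.1% in vehicle and 42.3% against 22.0% in p38i. In p38KO it was 13.04% of only 23 cells with Pdcd1, against 4.41%.

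**Figure D3:**
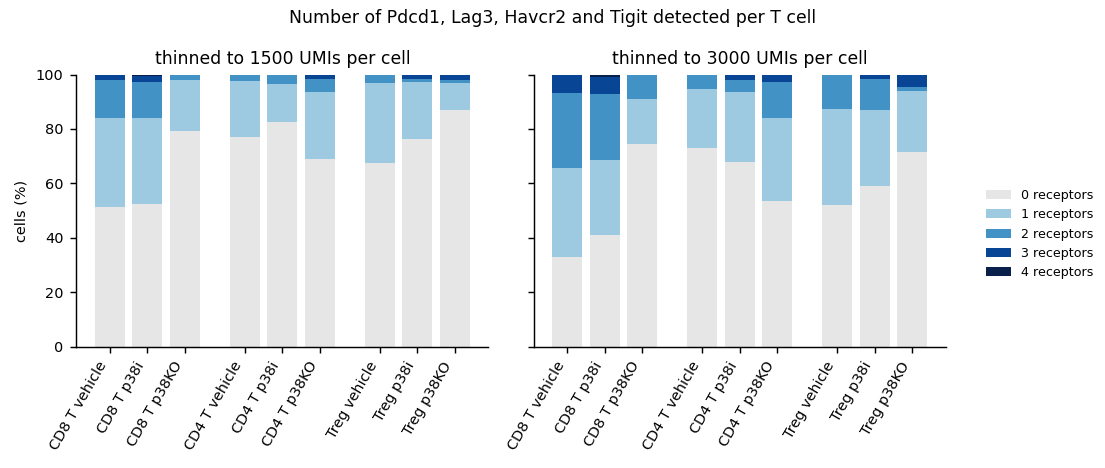
Share of CD8 T, CD4 T and Treg cells (vertical axis, percent from 0 to 100) in which 0 to 4 of Pdcd1, Lag3, Havcr2 and Tigit were detected, with each cell thinned to 1500 UMIs (left) or 3000 UMIs (right). In CD8 T cells the share with 2 or more is 15.9%, 15.8% and 1.89% for vehicle, p38i and p38KO on the left, and in CD4 T cells 2.54%, 3.47% and 6.32%.

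The 250 bases before the start of 3 of the members called lower in p38KO CD8 T cells are printed to show what the receptors and the PD-1 ligand have in front of them. They come from RefSeq on GRCm38.p6, which holds an entry for 7 of the 9 members (not Lag3 and Tox). The motifs of 3 kinds of factor downstream of T cell activation and interferon were searched on both strands, AP-1 as TGANTCA, the STAT site (GAS) as TTCNNNGAA and the interferon element (ISRE) as 2 copies of GAAA with 2 bases between them, and a match is printed in capitals. Of 32851 promoters of that length 6.75%, 7.02% and 2.98% held them. The Havcr2 stretch has 1 AP-1 match, between 200 and 194 bases before the start, while the Pdcd1 and Cd274 windows hold none of these letters. Of the windows not printed, that of Lgals9 has 1 ISRE match, between 55 and 46 bases before the start, and overlaps 1 exon. Those of Pdcd1lg2, Tigit and Entpd1 hold no match.
Pdcd1, chr1:94052554-94052803, minus strand: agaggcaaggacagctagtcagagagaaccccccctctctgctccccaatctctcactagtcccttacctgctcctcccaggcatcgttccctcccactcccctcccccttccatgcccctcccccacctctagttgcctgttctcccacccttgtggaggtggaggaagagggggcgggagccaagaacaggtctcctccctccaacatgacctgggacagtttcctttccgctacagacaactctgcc
Havcr2, chr11:46454681-46454930, plus strand: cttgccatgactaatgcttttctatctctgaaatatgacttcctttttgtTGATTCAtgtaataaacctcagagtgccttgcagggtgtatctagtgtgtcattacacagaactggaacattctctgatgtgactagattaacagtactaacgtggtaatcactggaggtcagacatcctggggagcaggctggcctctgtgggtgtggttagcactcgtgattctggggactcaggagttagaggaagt
Cd274, chr19:29367188-29367437, plus strand: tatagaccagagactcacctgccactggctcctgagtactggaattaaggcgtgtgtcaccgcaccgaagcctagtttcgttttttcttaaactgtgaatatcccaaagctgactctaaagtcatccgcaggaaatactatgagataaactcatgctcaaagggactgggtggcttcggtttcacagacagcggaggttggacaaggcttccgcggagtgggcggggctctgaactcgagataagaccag

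In CD4 T cells of p38KO tumors Pdcd1, Lag3 and Havcr2 were higher, not lower as in CD8 T cells, and the difference between the classes was not tested. Of 8 members with enough counts 4 were called higher and none lower in p38KO, where 7.99% and 3.49% of 7020 genes were, with medians of 0.74 for the members and 0.10 for all genes. In p38i 1 of 8 was higher and none lower, against 4.8% and 3.32% of 6266 genes, with medians of 0.08 and 0.04. Pdcd1 in CD4 T cells was 138 (109 to 172), 142 (114 to 175) and 254 (223 to 288) CPM. The p38KO interval lies above the others, and the log2 ratio was 0.88 (0.51 to 1.26), beside 0.04 (-0.41 to 0.50) in p38i. Thinned shares of 16.1%, 10.4% and 20.7% have overlapping intervals, and at own depth (medians 4342, 3557 and 4863 UMIs) they were 29.7%, 22.9% and 46.0%. In a finer clustering (Leiden resolution 2) the T cell cluster led by Lgals7, Cd4 and Tnfsf8 held 31, 49 and 101 cells. The one led by S1pr1, Gm8369 and Tcf7 held 130, 202 and 138, and the part of this make-up in the CD4 differences was not tested.

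Lag3 in CD4 T cells stood at 79.4 (58.1 to 106), 86.3 (64.8 to 113) and 158 (134 to 186) CPM, highest in p38KO. The log2 ratio was 1.0 (0.51 to 1.5) there and 0.12 (-0.47 to 0.72) for p38i. Havcr2 was 10.4, 23.96 and 43.2 CPM, or 6, 15 and 41 counts in 2, 8 and 20 cells. Its p38KO log2 ratio was 2.06 (0.82 to 3.59), and that of p38i 1.21 (-0.24 to 2.86) was not called. In the whole cluster led by Cd4, Tnfsf8 and Cd40lg Havcr2 was called higher in both libraries. The ratios there were 1.97 (0.39 to 3.98) in p38i, on 4 and 20 counts, and 2.53 (1.05 to 4.48) in p38KO. Entpd1 was lowest in vehicle, at 31.1, 57.5 and 63.3 CPM, and was called higher in both other libraries. Its p38i ratio was 0.89 (0.03 to 1.79), and its p38KO ratio 1.03 (0.25 to 1.87). Tox held no such difference in CD4 T cells, at 63.8, 47.9 and 60.1 CPM. The p38i ratio was -0.41 (-1.16 to 0.32) and the p38KO ratio -0.09 (-0.71 to 0.55), neither of them called.

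The CD4 ratios were also computed with cells that held myeloid RNA set aside. The neutrophil marker sum in CD4 T cells was 1901, 5835 and 3416 CPM (0, 1 and 1 of 7 at 0) and the macrophage sum 94.9, 92.7 and 442 CPM (3, 2 and 0 of 8 at 0). With at most 1 neutrophil marker UMI (53, 77 and 121 cells left) the p38KO log2 ratio was 0.84 for Pdcd1 and 2.39 for Lag3, both called higher, and Lag3 was then called higher in p38i too, at 1.41 (0.04 to 3.01). With at most 1 monocyte or macrophage marker UMI (84, 102 and 86 cells) Pdcd1 was again called higher at 0.96, while Lag3 was not, at 0.63 (-0.05 to 1.34). Havcr2 had under 20 counts in either setting. Entpd1 was not called in the first, at 1.03 (-0.51 to 3.03) in p38KO and 1.13 on under 20 counts in p38i, and was called higher in the second at 1.46 and 1.21. The share of CD4 T cells with at least 2 receptors at 1500 UMIs was 2.54%, 3.47% and 6.32% (exact 95% intervals 0.527% to 7.25%, 1.14% to 7.92% and 3.20% to 11.0%), which overlap, and 5.38%, 6.25% and 16.1% at 3000 UMIs.

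In Treg cells Lag3 was lower in p38KO and neither Pdcd1 nor Tox was called. Lag3 was 227 (181 to 283), 213 (172 to 261) and 118 (89.6 to 153) CPM, lowest in p38KO. Its ratio to vehicle was -0.95 (-1.46 to -0.44), against -0.09 (-0.54 to 0.36) for p38i. A single vehicle cell supplied 27 of the 81 vehicle counts. That was 1 of 7 members lower and none higher in p38KO, against 3.45% and 4.41% of genes, with medians of 0.14 for the members and 0.06 for all genes. With at most 1 monocyte or macrophage marker UMI only 19, 65 and 28 Treg cells were left, and the p38KO ratio of Lag3 was -0.23 (-1.61 to 1.16). With at most 1 neutrophil marker UMI (34, 64 and 68 cells) Lag3 was called lower in both libraries, at -1.29 (-1.86 to -0.74) in p38KO and -1.03 (-1.61 to -0.46) in p38i. The macrophage marker sum in Treg cells was 101, 124 and 448 CPM (2, 3 and 1 of 8 at 0).

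Pdcd1 in Treg cells was 70.2, 84.8 and 77.3 CPM, with intervals that overlap in all 3 libraries. Tox had its highest median level over classes in Treg cells, at 126, 122 and 112 CPM and thinned shares of 17.7%, 18.2% and 16.3%, with ratios of -0.06 (-0.66 to 0.55) and -0.17 (-0.77 to 0.43). Tigit gave 4, 1 and 1 counts there, or 11.2, 2.29 and 2.04 CPM, so its highest class is set by a few molecules. Among the ligands, Cd274 in Treg cells was 199, 119 and 145 CPM and was called lower in p38i at -0.74 (-1.29 to -0.20) but not in p38KO at -0.46 (-0.96 to 0.03). Pdcd1lg2 was 19.6, 55.0 and 38.7 CPM on 7, 24 and 19 counts, a p38i log2 ratio of 1.49 (0.23 to 2.94) that was called higher. These were 1 of 8 members in each direction in p38i, against 4.06% higher and 4.09% lower of all genes, with medians of -0.07 and 0.03. In the whole cluster led by Foxp3, Ikzf2 and Tnfrsf4 neither call was made in p38i. The ratios there were -0.42 (-0.91 to 0.06) for Cd274 and 0.64 (-0.30 to 1.64) for Pdcd1lg2.

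Cycling T cells of any kind, 60, 60 and 42 cells that overlap the gates above, had 3 of 8 members lower and none higher in p38KO, where 3.64% and 9.04% of genes were (medians -0.46 and 0.15). None was called in p38i, where 5.55% of genes were higher and 2.77% lower (medians -0.12 and 0.05). Lag3 was 242, 196 and 60.7 CPM there, a p38KO log2 ratio of -2.0 (-2.64 to -1.40). Havcr2 was 99.4, 83.4 and 22.5 CPM, a ratio of -2.14 (-3.27 to -1.17). Pdcd1 was 209, 286 and 142 CPM, and its p38KO ratio of -0.56 (-1.02 to -0.12) turned to 0.09 (-0.53 to 0.71) when cells were gated after thinning to 1500 UMIs. Over all T cells together 3 of 8 members were lower and 1 higher in p38KO, against 2.92% and 8.38% of genes (medians -0.38 and 0.12), and none in p38i, against 2.08% and 5.48% (medians -0.12 and 0.07).

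NK cells gated on Ncr1 held Lag3 at 60.3, 55.8 and 60.7 CPM and Tox at 24.8, 22.1 and 26.2 CPM, with no call in either comparison. Cd274 in NK cells was 69.7 (53.1 to 89.9), 68.8 (51.5 to 90.0) and 24.3 (15.9 to 35.6) CPM. It was lower in p38KO, at -1.52 (-2.25 to -0.83), and even in p38i at -0.02 (-0.58 to 0.54), where 20 of the 53 counts came from 1 cell. Lgals9 at 94.5, 57.1 and 79.4 CPM was called lower in p38i at -0.73 (-1.29 to -0.18), and so was Pdcd1lg2 at 36.6, 14.3 and 29.9 CPM with -1.36 (-2.50 to -0.33). Pdcd1 in NK cells was 11.8, 1.30 and 27.1 CPM, from 3, 1 and 7 cells with up to 10 counts in 1 of them. Its p38KO ratio of 1.20 (0.12 to 2.40) turned to -1.26 (-3.41 to 0.59) when cells were gated after thinning. In NK cells 2 of 6 members were thus lower and none higher in p38i against 4.56% and 2.92% of genes (medians -0.14 and -0.02), and 1 of 7 was higher and 1 lower in p38KO against 5.08% and 5.54% (medians -0.23 and 0.00). The 8 macrophage markers summed to 59.1, 75.3 and 351 CPM in NK cells (2, 3 and 0 at 0), and their part in the Cd274 result was not tested.

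Havcr2 was not only a T cell gene. Its highest level was in monocytes at 155 (143 to 167), 155 (146 to 165) and 146 (133 to 159) CPM, the same within counting error, with thinned shares of 18.2%, 18.25% and 19.2%. Dendritic clusters as a whole followed at 83.7, 74.8 and 112 CPM, and their range over libraries overlaps that of CD8 T cells. Macrophages gave 32.2, 32.9 and 46.5 CPM and were called higher in p38KO at 0.53 (0.21 to 0.86), beside 0.03 (-0.38 to 0.45) in p38i. Over all kept cells 64.3%, 76.0% and 41.7% of Havcr2 counts came from monocytes and 16.2%, 9.48% and 5.79% from T cells. Macrophages held 8.12%, 5.75% and 29.7% of them, and C1qa macrophages were 3.64%, 3.40% and 13.55% of kept cells.

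Neutrophils showed the other large p38KO difference of Havcr2, at a low level. It was 3.68 (2.25 to 5.68), 5.16 (3.48 to 7.37) and 28.3 (23.4 to 33.9) CPM, or 20, 30 and 117 counts in 15, 24 and 70 cells. The p38KO interval is far above the others and the log2 ratio was 2.94 (2.25 to 3.70), beside 0.49 (-0.37 to 1.38) in p38i. Counted over all cells of the 7 neutrophil clusters, gated or not, 81 of 123 p38KO counts lay in the cluster led by Mmp9, Cxcr2 and Fpr1, genes of mature neutrophils, where the level was 11.5, 10.0 and 95.5 CPM. Macrophage markers in neutrophils summed to 196, 133 and 566 CPM with none of the 8 at 0. In neutrophils with at most 1 monocyte or macrophage marker UMI (1605, 1916 and 1006 cells) the ratio was 2.66 (1.81 to 3.6), and it was called higher there too. This was 1 of 5 members in p38KO neutrophils, where 10.3% of genes were called higher and 2.84% lower (medians 0.17 and 0.11). None of 5 was called in p38i, where 5.09% were higher and 3.74% lower (medians 0.00 and 0.05).

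Lag3 reached the level of CD8 T cells in plasmacytoid dendritic cells, which make type I interferon. It stood at 252 (194 to 321), 246 (203 to 296) and 133 (103 to 169) CPM in 24, 53 and 39 cells, and was detected at own depth in 87.5%, 83.0% and 69.2% of them. The p38KO level was the lowest, with a log2 ratio of -0.92 (-1.44 to -0.40), and p38i gave -0.03 (-0.48 to 0.43). Over the 8 macrophage markers these cells held 329, 325 and 2975 CPM (3, 2 and 0 at 0), and the part of these in the result was not tested. In macrophages Lag3 was 17.4, 8.88 and 16.7 CPM and was called lower in p38i at -0.97 (-1.70 to -0.28). The Lag3 ranges of CD8 T cells, plasmacytoid dendritic cells, Treg cells and CD4 T cells overlap, but each range spans the 3 groups. Within a library CD8 and CD4 T cells differed, at 277 against 79.4 CPM in vehicle and 265 against 86.3 in p38i. In p38KO the order was the other way, at 40.3 against 158 CPM. By range CD4 T cells lie above NK cells, which the CD8 range of 40.3 to 277 CPM includes.

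Entpd1 was foremost a neutrophil gene, at 418 (401 to 435), 419 (403 to 436) and 466 (445 to 487) CPM. Neither the p38i ratio of 0.00 (-0.08 to 0.09) nor the p38KO ratio of 0.16 (0.07 to 0.25) was large enough to be called. Monocytes came next at 136, 145 and 121 CPM, and Treg cells at 87, 78.0 and 97.7 CPM, a range that overlaps those of macrophages and CD8 T cells. Thinned shares were 40.4%, 43.2% and 45.5% in neutrophils and 6.14%, 10.7% and 10.1% in CD8 T cells, against 4.24%, 5.56% and 9.195% in CD4 T cells.

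Cd274, which encodes PD-L1, was carried above all by neutrophils, at 896 (871 to 922), 746 (724 to 768) and 1185 (1152 to 1219) CPM. The 3 intervals do not overlap, p38i being lowest and p38KO highest, but the log2 ratios of -0.26 (-0.32 to -0.21) and 0.40 (0.35 to 0.46) stay under the size rule. Thinned shares were 46.5%, 44.1% and 49.97%, beside 5.13% and 6.45% in B cells of vehicle and p38i and 0 of 14 (upper exact limit 23.2%) in p38KO, at median depths of 3704, 3397 and 3733 UMIs. The neutrophil clusters, gated or not, held 70.0%, 63.1% and 70.2% of all Cd274 counts and the monocyte clusters 20.2%, 28.7% and 14.7%.

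Within neutrophils Cd274 differed far more between clusters than between libraries. The cluster led by the interferon-induced genes Ifit1, Rsad2 and Ifit3b had 2291, 1782 and 2561 CPM, and the one led by Ccdc126, Hilpda and Ciart 1936, 1649 and 2230 CPM. At the other end, the cluster of Lrg1, Cebpd and Steap4 had 32.6, 37.3 and 37.6 CPM. The p38KO ratio lay between 0.16 and 0.40 in 6 of the 7 neutrophil clusters and was called in none of these. In the seventh cluster, immature cells led by Ngp, Camp and Ltf, Cd274 was 83.4, 142 and 621 CPM, called higher in p38i at 0.76 (0.15 to 1.42) and also in p38KO, at 2.9 (2.03 to 3.74), but on 38, 94 and 6 cells. The Ifit1 cluster held 278, 88 and 387 cells, the same order of libraries as the Cd274 level of all neutrophils, and its part in that difference was not tested.

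**Figure D4:**
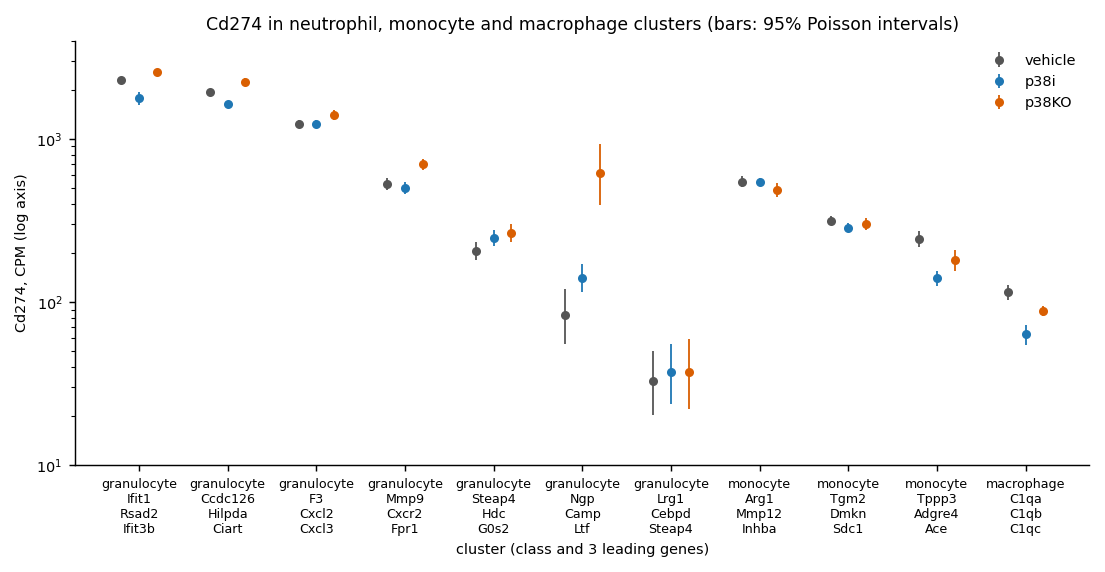
Cd274 level (CPM, log axis) in 7 neutrophil, 3 monocyte and 1 macrophage cluster, colored by library, with exact Poisson 95% intervals. Each cluster is named by its 3 leading genes. Levels run from about 2291 CPM of vehicle in the cluster of Ifit1 to 32.6 in that of Lrg1, and Cd274 was called in 3 of the 11 clusters. It was lower in p38i in those of Tppp3 (-0.80) and C1qa (-0.85), and higher in both libraries in that of Ngp, of which p38KO has 6 cells.

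Monocytes held Cd274 at 308, 267 and 280 CPM, with log2 ratios of -0.20 (-0.31 to -0.10) and -0.13 (-0.26 to -0.01) that were not called. None of 5 members was called in monocytes in either comparison, where 3.64% of genes were higher and 2.62% lower in p38i and 6.99% and 2.16% in p38KO. The medians of members and all genes were -0.01 and 0.04 in p38i and -0.09 and 0.07 in p38KO. Their clusters differed again: the one led by Arg1, Mmp12 and Inhba stood at 547, 545 and 484 CPM. The cluster led by Tppp3, Adgre4 and Ace was named from the monocyte markers Ly6c2, Ccr2, Vcan, Chil3 and F13a1. Cd274 there was 244, 140 and 181 CPM and was called lower in p38i at -0.80 (-1.02 to -0.58), beside -0.43 (-0.70 to -0.17) in p38KO. At resolution 2 a cluster led by Ace, Ear2 and Adgre4, left unnamed, held 62, 83 and 49 cells. Another, led by Thbs1, Chil3 and Lyz2, held 121, 239 and 98, and the part of this make-up in the Cd274 difference was not tested.

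Macrophages held less Cd274 in p38i, at 115.5 (104 to 128), 64.4 (55.7 to 74.1) and 87.9 (81.9 to 94.4) CPM. None of the 3 intervals overlap, with vehicle highest, and the p38i ratio of -0.84 (-1.10 to -0.59) was called lower, whereas that of p38KO was -0.39 (-0.58 to -0.21). Pdcd1lg2 had its highest median in macrophages, 41.0, 46.0 and 28.8 CPM, and was called lower in p38KO at -0.51 (-0.83 to -0.19) and not in p38i at 0.17 (-0.19 to 0.53). The ranges of Pdcd1lg2 over libraries overlap between neighbouring classes from macrophages down to monocytes. Those of macrophages, 28.8 to 46.0 CPM, and of dendritic clusters as a whole, 29.1 to 52.6 CPM, lie above that of monocytes, 19.5 to 25.65 CPM. Within neutrophils, the cluster led by Ccdc126, Hilpda and Ciart held Pdcd1lg2 at 108, 110 and 97.05 CPM, above the macrophages of each library. In macrophages 2 of 6 members were called lower in p38i, Lag3 and Cd274, and none higher, against 4.5% and 3.38% of genes (medians -0.18 and -0.01). In p38KO 1 was higher and 1 lower against 9.2% and 3.29% (medians -0.13 and 0.06).

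Lgals9, the ligand of TIM3, was spread over neutrophils at 155, 130 and 174 CPM, monocytes at 130, 124 and 177 CPM and macrophages at 111, 97.3 and 151 CPM. In all 3 classes p38i was lowest and p38KO highest. The p38KO log2 ratios were 0.17 (0.02 to 0.31), 0.44 (0.27 to 0.61) and 0.45 (0.27 to 0.62), each under the size rule. The ranges of these 3 classes overlap, while that of macrophages lies above NK cells. Thinned shares in monocytes were 16.3%, 14.6% and 24.2%, against 4.17%, 4.60% and 8.70% in the dendritic cluster.

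Dendritic cells were few, and the Flt3 gate took 36.1%, 51.7% and 65.2% of their cluster. In the gated cells Cd274 was 28.5, 56.3 and 63.2 CPM, called higher in p38KO at 1.15 (0.24 to 2.18) and not in p38i at 0.98 (-0.01 to 2.07), but 26 of the 61 p38KO counts came from 1 cell. In the whole cluster the p38KO ratio was -0.16 (-0.59 to 0.28). Pdcd1lg2 in gated cells was 16.65, 42.7 and 28.0 CPM, with a called 1.36 (0.11 to 2.81) in p38i and 0.75 (-0.49 to 2.19) in p38KO, and Lgals9 was 19.0, 18.8 and 49.7 CPM with a called 1.39 (0.29 to 2.68) in p38KO. Over the whole cluster Pdcd1lg2 was not called in p38i, at 0.54 (-0.09 to 1.18). Lgals9 in the whole cluster was instead called lower in p38i at -1.36 (-2.22 to -0.55), and its p38KO ratio was 0.34 (-0.19 to 0.89). In the Flt3 gate 1 of 4 members was higher and none lower in p38i against 7.24% and 4.24% of genes (medians 0.36 and 0.05), and 2 of 5 were higher and none lower in p38KO against 6.71% and 3.98% (medians 0.75 and 0.08). In the whole cluster 1 of 5 was lower and none higher in p38i, against 3.05% and 6.01% (medians -0.16 and 0.06), and 1 of 5 was higher and none lower in p38KO, Entpd1 at 0.53 (0.05 to 1.02), against 7.6% and 4.09% (medians 0.34 and 0.07). Cells with both Ccr7 and Fscn1, markers of mature dendritic cells that were gated after the data were seen, held Cd274 at 353, 273 and 323 CPM and Pdcd1lg2 at 35.3, 62.9 and 355.5 CPM, though there were only 4, 12 and 6 of them. In these cells 1 count amounts to 35.3, 10.5 and 16.2 CPM, so the vehicle level of Pdcd1lg2 is a single count. The 7 markers of mature dendritic cells summed in the Flt3 gate to 140, 1078 and 639 CPM, with none at 0. In plasmacytoid dendritic cells Cd274 was 46.4, 70.6 and 119 CPM, called higher in p38KO at 1.35 (0.44 to 2.39). Havcr2 there, at 11.6, 45.0 and 20.1 CPM, was called higher in p38i at 1.95 (0.21 to 4.34) on 3 and 21 counts. That made 1 of 5 members higher and none lower in p38i against 4.07% and 4.25% of genes (medians 0.61 and 0.02), and 1 of 4 higher and 1 lower in p38KO against 3.97% and 4.71% (medians 0.06 and 0.02).

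**Figure D5:**
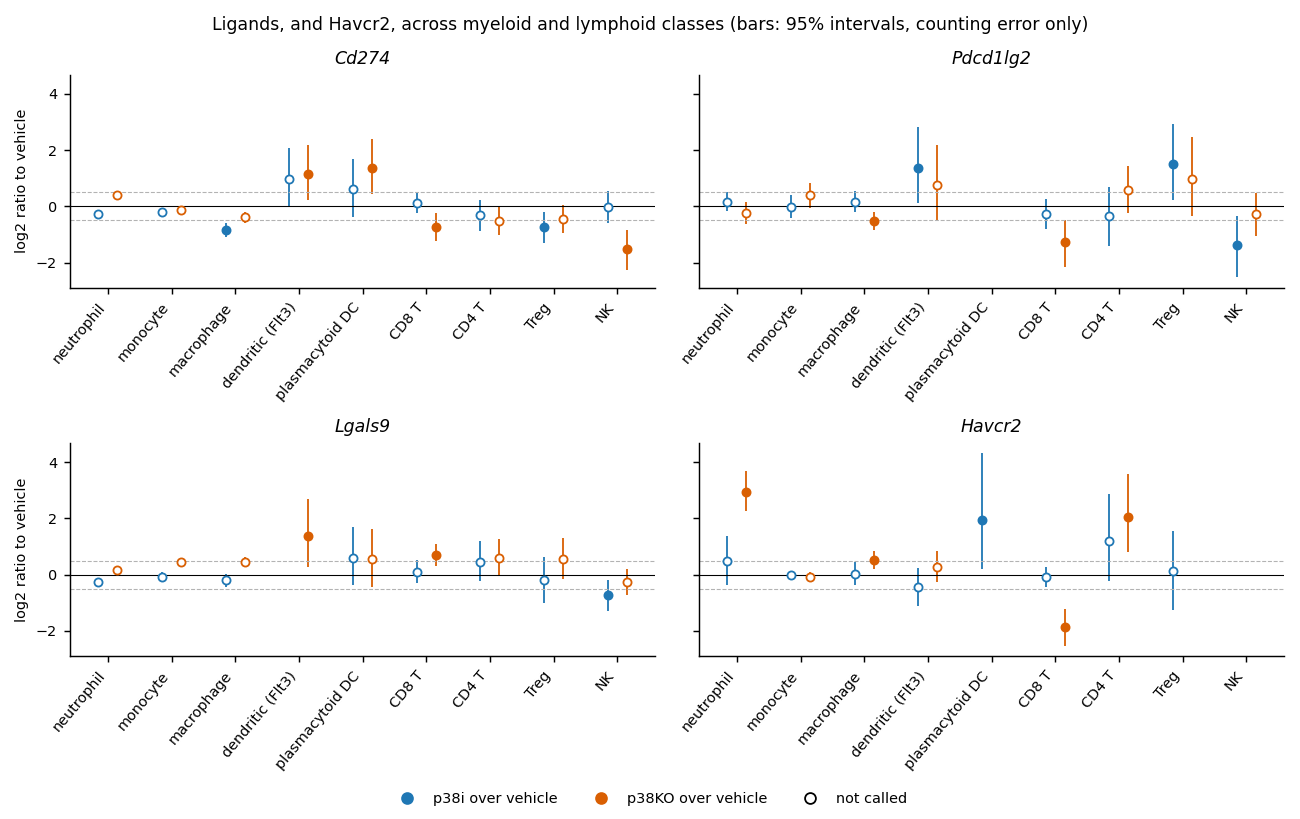
Log2 ratio to vehicle of the ligands Cd274, Pdcd1lg2 and Lgals9 and of Havcr2 in 9 myeloid and lymphoid classes for p38i (blue) and p38KO (orange), with 95% intervals of counting error. Filled points were called and dashed lines mark the ratio of 0.5 either way. In neutrophils Cd274 lies at -0.26 and 0.40 and Havcr2 at 0.49 and 2.94.

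Other genes of these pathways were read from 5 lists with 47 genes in all. Of 12 transcription factors of activated and exhausted T cells with enough counts in CD8 T cells, 6 were called lower and 1 higher in p38KO, where 5.08% and 7.11% of all genes were, with a median log2 ratio of -0.52 beside 0.08 over all genes. In p38i 2 of 11 were lower and none higher, against 2.65% and 4.93%, with medians of 0.04 and 0.06. Nr4a2, an early response gene, was 61.4, 64.9 and 2.95 CPM, a p38KO ratio of -4.38 (-6.68 to -2.80) on 127 and 3 counts. Outside lymphocytes, Nr4a2 was also called lower in p38KO Flt3 dendritic cells at -2.27 and monocytes at -1.24, and in p38i monocytes at -1.82. It was not called in neutrophils or macrophages. Prdm1, which encodes Blimp-1, was 33.4, 24.2 and 4.91 CPM with a p38KO ratio of -2.77 (-4.43 to -1.47). Prdm1 was also called lower in p38KO CD4 T cells at -1.30. In NK cells it was lower at -1.21 in p38i and -1.27 in p38KO, and in monocytes at -0.69 and -0.65. It was called higher in p38KO neutrophils, at 1.32. Id3, a factor of memory-like T cells, was 4.84, 4.46 and 19.6 CPM in CD8 T cells, the 1 that was higher there, at 2.02 (0.86 to 3.28). Irf4 and Maf were lower in both libraries, Irf4 by ratios of -0.95 in p38i and -1.44 in p38KO and Maf by -1.21 and -1.28.

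Among 10 other inhibitory receptors in CD8 T cells 1 was called higher and 2 lower in each library. Of all genes 4.93% were higher and 2.65% lower in p38i and 7.11% and 5.08% in p38KO, so the 1 that was higher is near the background. Ctla4, which competes with CD28 for its ligands, was 118, 34.4 and 10.8 CPM, lower in both at -1.78 (-2.23 to -1.35) and -3.45 (-4.47 to -2.58). Cd200r1 was higher in both, at 0.94 (0.33 to 1.57) and 0.78 (0.07 to 1.49). In CD4 T cells of p38KO 3 of 7 such receptors were higher and 1 lower, against 7.99% and 3.49% of all genes. Klrc1, which encodes NKG2A, stood there at 62.1, 70.3 and 273 CPM, a p38KO ratio of 2.14 (1.63 to 2.68), whereas Ctla4 was 385, 104 and 108 CPM and lower in both libraries at -1.89 (-2.31 to -1.49) and -1.84 (-2.19 to -1.49). Unlike Pdcd1, Lag3 and Havcr2, Ctla4 thus had the same direction in CD8 and CD4 T cells of p38KO. Klrc1 did not, as it was called lower in p38KO CD8 T cells at -0.58. Ctla4 was also called lower in Treg cells, at -0.88 in p38i and -0.97 in p38KO, and in NK and cycling T cells of both libraries.

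Of 5 further partners with enough counts in CD8 T cells, none was called in p38i and 1 was higher and 1 lower in p38KO, beside the same shares of all genes. The activating receptor Cd226, the rival of TIGIT for its ligand, was 178, 189 and 343 CPM, a p38KO ratio of 0.95 (0.73 to 1.16). Lgals3, a partner of LAG3, was 790, 645 and 538 CPM, a ratio of -0.55 (-0.70 to -0.41). Of the 5 signal transducers below PD-1 and TIM3, among them the phosphatases Ptpn6 and Ptpn11 and the kinases Lck and Fyn, none was called in CD8, CD4 or Treg cells in either comparison. Of the adenosine genes beside Entpd1, 1 of 5 was lower in p38i CD8 T cells (Adk, -0.71) and none was called in p38KO.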

How the data were processed

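Single-cell RNA sequencing (10x Genomics) was measured in CD45+ cells of 4T1 tumors, 1 library of 3 pooled tumors for each of 3 groups taken from the labels. The authors deposited filtered matrices of raw UMI counts per gene and barcode, made with Cell Ranger 6.0.0 per the file headers, on mm10 according to the submitters' processing notes, which also name R 4.2.1 and Seurat 5. No cell filter of the study had been applied to them.

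The filter kept barcodes from 1500 UMIs and 300 genes upwards with up to 20% of counts from mitochondrial genes. Counts were scaled to 10000 per cell, logged, and clustered with scanpy 1.11.5 (2000 variable genes from those in at least 10 cells, 30 components, values capped at 10, 15 neighbours, Leiden resolution 1, seed 1), with the 9 members and the pathway genes left out. A class name needed at least 3 detected markers, and 1 of 23 clusters stayed unnamed. No doublet caller was run, and T cells with Cd8 and either Cd4 or Foxp3, 10, 17 and 16 cells, stayed out of the CD8, CD4 and Treg gates. With these, 70 of 533, 150 of 657 and 105 of 530 cells of the T cell clusters lay outside those gates (13.1%, 22.8% and 19.8%).

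Counts were summed over the cells of a class and library. With 1 library a group there is no test across samples. Intervals are exact (scipy 1.17.1, numpy 2.4.6, pandas 2.3.3) and a count of 0 was replaced by 0.5 in ratios. Limits for a count of 0 use 3 counts or the exact upper bound. Shares were taken after thinning each cell to 1500 UMIs. The method was tested on simulated data. The members and lists were chosen with earlier results of these data known. All members were named. Called genes of a pathway list (up to 3 with the largest ratios per T cell subset and comparison) and the 3 genes most like each member were named in part only. Some calls in other classes were added. Alternatives were another fold, no cell filter, Leiden resolution 2, gates after thinning, whole classes, median-ratio scaling and the mean of per-cell CPM.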

Additional observations from a re-analysis of the deposited data

Results flagged for a closer look

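The results below stand out because, within the same comparison, a gene was called higher in some cell classes and lower in others. The differences between classes were not tested, since each group is 1 library.

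In p38KO, Pdcd1 had log2 ratios of -1.24 in CD8 T cells, -0.56 in cycling T cells and -2.40 in the small cluster led by Trdc, but 0.88 in CD4 T cells and 1.20 in NK cells, the last from 7 p38KO cells. Lag3 was lower in CD8 T cells at -2.78, cycling T cells at -2.0, Treg cells at -0.95 and plasmacytoid dendritic cells at -0.92, and higher in CD4 T cells at 1.0. Havcr2 was lower in CD8 T cells at -1.86 and cycling T cells at -2.14, and higher in CD4 T cells at 2.06, neutrophils at 2.94 and macrophages at 0.53. Cd274 was lower in CD8 T cells at -0.72, though not called in the whole cluster led by Cd8a, at -0.22. It was lower in NK cells at -1.52, and higher in Flt3 dendritic cells at 1.15, where 26 of 61 counts came from 1 cell and the whole cluster gave -0.16. It was also higher in plasmacytoid dendritic cells at 1.35, on 12 and 59 counts, and lower in B cells at -1.77, on 27 and 3 counts. Entpd1 was higher in CD4 T cells at 1.03 and lower in B cells, with 22 vehicle and 0 p38KO counts, where the ratio of -4.06 rests on the value put in place of the 0 and is no bound, and the interval lies below -1.05.

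In p38i, Pdcd1lg2 was higher in Treg cells at 1.49 and Flt3 dendritic cells at 1.36, and lower in NK cells at -1.36. Neither higher call was made in the whole cluster. The ratio was 0.64 (-0.30 to 1.64) in that led by Foxp3 and 0.54 (-0.09 to 1.18) in the dendritic one. The whole NK cluster was called lower too, at -1.64.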

How the results depend on the processing

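No paired analysis was possible because the labels carry no shared replicate numbers and each group is 1 library, which also means that no replicate could be left out. Without the cell filter all 117 log2 ratios stayed within their counting interval. At Leiden resolution 2, 111 of 117 did, with gates after thinning 98 of 108, in whole classes 51 of 54, with median-ratio scaling 115 of 117 and with the mean of per-cell CPM 113 of 117.

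The 1 member called higher in CD8 T cells became 0 in p38i with a log2 ratio of 1, without the cell filter and with median-ratio scaling, and 0 in p38KO with a log2 ratio of 1. Cd274 in p38KO neutrophils, 0.40, was 0.62 at resolution 2, past the size rule, 0.32 in the whole class, 0.29 with median-ratio scaling and 0.27 as a mean of per-cell CPM. The 0.62 is from a different set of cells. Among the clusters left unnamed at resolution 2, and so outside the neutrophils, was that led by Ccdc126, Hilpda and Ciart. It held 375, 365 and 153 cells. Cd274 in p38i neutrophils was -0.33 in the whole class. Cd274 in dendritic cells was -0.16 in p38KO in the whole cluster, a reversal. In p38i it was -0.03 (-2.93 to 2.87) at resolution 2, on under 20 counts. The named dendritic cluster there held 16, 17 and 38 cells before the Flt3 gate, and another led by Ccl17, Cd209a and Timd4 was left unnamed. With gates after thinning Pdcd1 in p38KO reversed to 0.09 in cycling T cells and -1.26 in NK cells. The share of CD8 T cells with 2 or more receptors was 34.5%, 31.3% and 9.03% at 3000 UMIs and 49.5%, 51.8% and 14.5% at own depth. The cause of these changes was not tested. In cells with at most 1 neutrophil marker UMI, an alternative chosen after seeing the data, the p38i ratios in CD8 T cells were 0.20 for Lag3, 0.56 for Havcr2 and 0.98 for Entpd1. In neutrophils with at most 1 monocyte or macrophage marker UMI the p38KO ratio of Cd274 was 0.28.

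In p38KO CD8 T cells the ratio ranged over 7 alternatives from -1.53 to -1.08 for Pdcd1, -2.86 to -2.51 for Lag3, -1.93 to -1.65 for Havcr2 and -1.98 to -1.47 for Tox, each called lower in the 6 that have an interval. In p38KO CD4 T cells it ranged from 0.50 to 0.96 for Pdcd1 and 0.63 to 2.39 for Lag3. The limits set by monocyte or macrophage marker UMIs and the Ccr7 and Fscn1 gate were also chosen after seeing the data.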

Other observations

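Treg and NK cells also had calls among the other genes of these pathways. In p38KO Treg cells 2 of 9 transcription factors were higher, Id3 at a log2 ratio of 2.86 and Irf4 at 1.91, and 2 were lower, Nr4a1 at -0.83 and Prdm1 at -0.81, where 4.41% of all genes were called higher and 3.45% lower. Of 5 other inhibitory receptors Cd96 was higher at 1.71 and Ctla4 lower at -0.97. In p38KO NK cells 7 of 11 transcription factors were lower and none higher, against 5.54% and 5.08% of all genes, with medians of -1.09 for the list and 0.00 for all genes. They were led by the early response genes Nr4a3 at -2.45, Nr4a2 at -2.04 and Nr4a1 at -1.92, and in p38i 6 of 11 were lower and none higher, against 4.56% and 2.92%, with medians of -0.50 and -0.02.

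The genes most like each member over 30 points, 11 cell classes in up to 3 libraries, were found by Pearson's r of log2(CPM + 10) among 11102 genes. The points share libraries, so the values are descriptions. Pdcd1 was closest to the T cell receptor genes Cd3e (0.954), Trac (0.952) and Cd3d (0.949), and Tox to Camk4 (0.982), Chst2 (0.964) and Cd3d (0.958). Lag3 was closest to Pcbp4 (0.902), and Havcr2 only loosely to Mcub (0.775). Cd274 was closest to Slfn4 (0.927), Gadd45a (0.924) and Mcl1 (0.924), and Entpd1 to Igfbp6 (0.953). Pdcd1lg2 reached 0.766 with Calm3, and Lgals9 0.861 with Lgals8.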
